A study of Mus musculus with 6 samples.

Results

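The genes described here are 8 genes that serve the manchette and the shaping of the sperm head, namely Hook1, Rimbp3, Cep131, Spem1, Ift20, Ift88, Kif3a and Meig1. They were taken by symbol from the 22770 gene rows of a ribosome profiling table, in which all 8 were present, and all 8 reached the minimum for testing. Ribosome profiling sequences the RNA stretches that ribosomes cover, so each value is a density of ribosome footprints on a gene. The samples are mouse round spermatids from testis, 3 wild-type libraries and 3 libraries of the genotype labelled Eif5a SKO, in which the gene of the translation factor EIF5A was targeted. The labels give no age, no strain, no Cre driver and no wording for SKO, and they do not say whether a library came from 1 mouse. The comparison therefore asks which manchette genes carried more or fewer footprints in SKO.

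The manchette is a skirt of microtubules that forms around the nucleus as a round spermatid begins to elongate, and it is taken apart before the sperm is released. It shapes the nucleus, and motor proteins and intraflagellar transport (IFT) complexes carry vesicles and tail proteins along it towards the base of the growing tail, much as in a cilium. Mice that lack its linkers or carriers make sperm with misshapen heads, short tails or both, and the males are usually infertile.

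Values are FPKM, footprints scaled to length and to the mapped fragments of the library. The annotation that set these lengths is not given in the sources used here. Levels of different genes, and their ranks, therefore compare only per the length used. The change between genotypes was tested by limma on log2(FPKM + 1) over the 15578 rows whose mean reached 1 FPKM, with Benjamini-Hochberg adjustment over all of them. The libraries differed in level across most genes, with TMM-type factors (a trimmed mean of the log ratios between libraries) from 0.812 in wild-type replicate 1 to 1.31 in SKO replicate 2. Values divided by these factors are called scaled. The median log2 fold change of all tested rows was 0.13 as deposited and 0.0028 after scaling. Eif5a itself had 34.2, 48.8 and 61.9 FPKM in wild type and 1.84, 1.93 and 2.99 FPKM in SKO (log2 fold change -3.90, SE 0.37, limma, adjusted p = 0.00641). Nothing in the labels says that the samples of a group came from separate animals beyond their replicate numbers, so p-values measure the spread between these libraries, which may in part be technical.

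None of the 8 manchette genes passed the test, with the values as deposited (adjusted p from 0.484 to 0.965) or scaled (0.303 to 0.957). Over all rows 0.128% passed as deposited and 1.02% passed after scaling, so a count of 0 in 8 lies at the background. At an unadjusted p under 0.05 the count was 0 as deposited and 2 after scaling, for Meig1 (higher in SKO) and Ift88 (lower in SKO), beside 11% and 15.6% of all rows. The 8 genes differed in direction: as deposited, 4 had a log2 fold change above the median of all rows and 4 below it, and their own median was 0.017. With 3 libraries a group the 95% intervals spanned between 1.73 and 2.31 log2 units as deposited, so a call that fails does not show that a gene was equal in both genotypes.

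**Figure D1:**
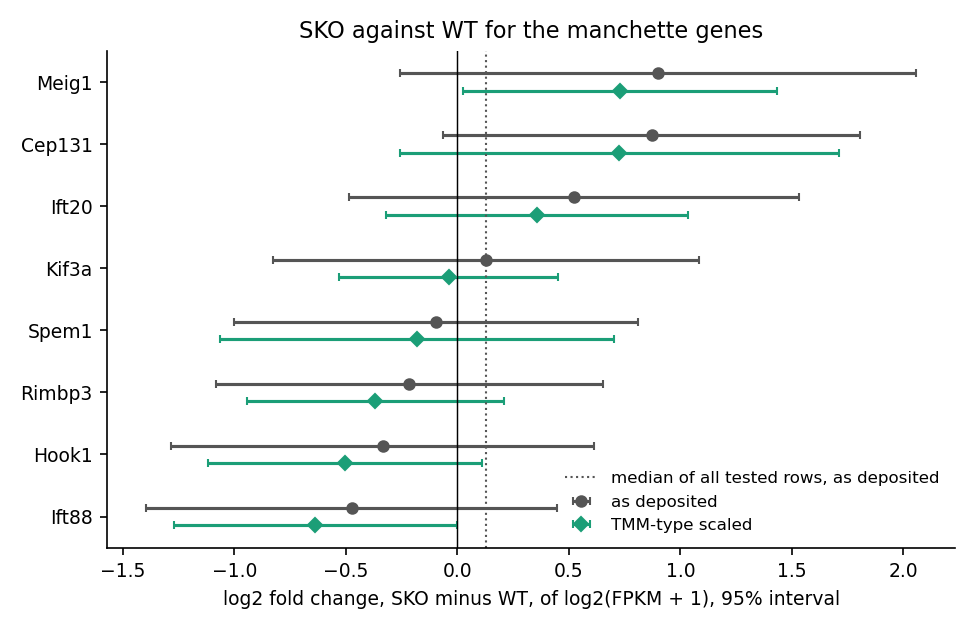
Log2 fold change (SKO minus wild type, of log2(FPKM + 1)) of each gene with its 95% limma interval, for deposited values (grey circles) and scaled values (green diamonds); the dotted line is the median of all tested rows, 0.13. Meig1 and Cep131 lie to the right with 0.90 and 0.87, Ift88 and Hook1 to the left with -0.47 and -0.34, and each interval of the deposited values crosses 0.

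The densest of the 8 by far was Meig1, and the sparsest was Spem1, with a 1294-fold difference between their means over the 6 libraries. Meig1 held between 78.2% and 90.4% of the summed FPKM of the 8 genes in each library and ranked 4 among 11159 tested protein-coding rows. Hook1 ranked 299 and Kif3a 627, Ift20 and Ift88 ranked 1414 and 1433, Rimbp3 3763, Cep131 4757 and Spem1 10945. In wild type the order Meig1, Hook1, Kif3a, then Ift20 and Ift88, then Rimbp3, Cep131 and Spem1 held without overlap between the ranges of neighbours, except that Ift20 and Ift88 overlapped. In SKO the ranges of Hook1 and Kif3a, of Kif3a and Ift20, of Ift20 and Ift88 and of Rimbp3 and Cep131 overlapped. These ranges pool libraries that differ in level across most genes. Within single libraries, Hook1 lay above Kif3a, and Kif3a above Ift20, in 3 of 3 SKO libraries. In the wild-type libraries Ift88 stood at 1.00, 2.42 and 1.29 times Ift20.

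**Figure D2:**
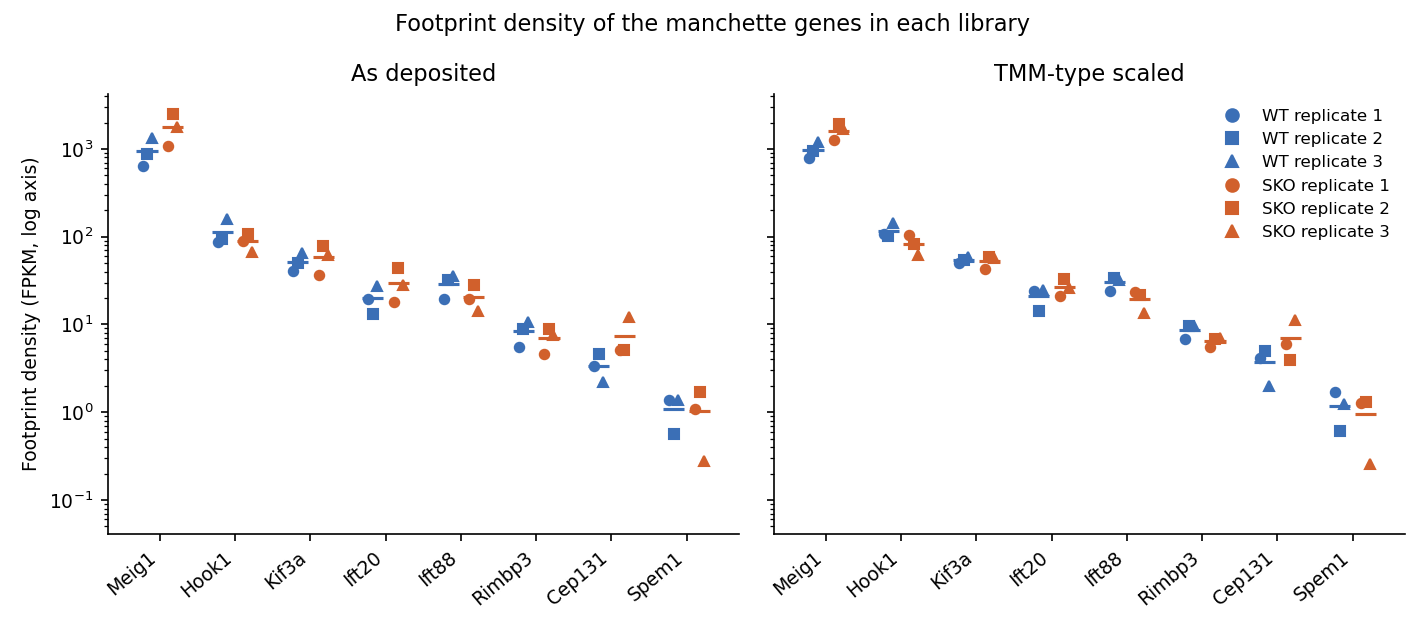
Footprint density in FPKM on a log axis for each gene in each of the 6 libraries, as deposited (left) and scaled (right); symbols mark the replicate, horizontal bars the group means, blue wild type and orange SKO. The order from Meig1 (means of 949.6 and 1799.9 FPKM) down to Spem1 (1.10 and 1.02 FPKM) is the dominant feature, and the genotypes lie close together beside it.

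Meig1 encodes a small protein that brings cargo such as SPAG16 to the manchette for the building of the tail. Meig1 (identifier 104362, chromosome 2, 3409043 to 3422648 in GRCm38, as for all positions here) had 636, 884 and 1329 FPKM in wild type and 1069, 2536 and 1795 FPKM in SKO. The groups overlapped in these values, because SKO replicate 1 lay below wild-type replicate 3. The means were 949.6 ± 351 and 1799.9 ± 733 FPKM (SD, n = 3 per group), a ratio of 1.90, and the log2 fold change was 0.90 (SE 0.52, limma, adjusted p = 0.564). After scaling the values were 783, 954 and 1194 in wild type against 1261, 1937 and 1668.5 in SKO, so every SKO library lay above every wild-type library. The scaled log2 fold change was 0.73 (95% interval 0.026 to 1.43, limma, adjusted p = 0.303). Among all tested rows, 11.6% had scaled groups apart with SKO higher. The 6 round spermatid markers differed among themselves. Of them, 3 lay above the median of all rows (Acrv1, Spaca1 and Tssk1) and 3 below it (Acr, Crem and Spata18). Their scaled list median was 0.13, and 0 passed the test (limma). As deposited 1 had an unadjusted p under 0.05 (limma), beside 11% of all rows. The summed FPKM of these markers, most of it from Acrv1 and Crem, ran from 622 to 1149 in the wild-type libraries and from 781 to 1680.3 in the SKO libraries, ranges that overlap, and its part in the Meig1 values was not tested. In whole libraries, more cells of a type cannot be told apart from more footprints per cell.

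The 2 head-shaping linkers, Hook1 and Rimbp3, had group means that were lower in SKO, and their groups overlapped as deposited and after scaling. HOOK1 attaches cargo and membranes to microtubules, and its truncation gives the abnormal sperm heads of the azh mouse. Hook1 (identifier 77963, chromosome 4, 95967181 to 96025412) had 87.2, 94.1 and 160.4 FPKM in wild type and 89.7, 108 and 66.9 FPKM in SKO. The groups overlapped, with wild-type replicate 3 the highest and SKO replicate 3 the lowest. The log2 fold change was -0.34 (95% interval -1.28 to 0.61, limma, adjusted p = 0.822), and -0.50 after scaling (limma, adjusted p = 0.410). The lncRNA genes 9530080O11Rik and A430108G06Rik overlap Hook1 and Kif3a in the RefSeq table, and whether the counting used strand is not given in the sources used here.

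Rimbp3 encodes a manchette protein that binds HOOK1, and mice without it have deformed heads. Rimbp3 (identifier 239731, chromosome 16, 17208135 to 17213982) had 5.57, 8.86 and 10.6 FPKM in wild type and 4.64, 8.93 and 7.57 FPKM in SKO. These groups overlapped, with the first replicate lowest in each. After scaling only SKO replicate 3, at 7.04, lay above the lowest wild-type library, at 6.86. The log2 fold change was -0.22 as deposited (95% interval -1.08 to 0.65, limma, adjusted p = 0.888) and -0.37 after scaling (limma, adjusted p = 0.536). The Hook1 level was 13.8 ± 2.77 times that of Rimbp3 in wild type and 13.4 ± 5.35 times in SKO (SD, n = 3; exact permutation test on log2 ratios, two-sided, p = 0.9).

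The IFT carriers and their motor gave no common direction. Kif3a encodes a motor subunit of kinesin-2, which drives IFT outwards and whose loss in germ cells disturbs the manchette. Kif3a (identifier 16568, chromosome 11, 53565701 to 53604248) had 40.7, 50.6 and 65.2 FPKM in wild type and 36.4, 77.9 and 61.9 FPKM in SKO, with the SKO libraries on both sides of the wild-type range. Its log2 fold change was 0.13 as deposited, the value of the median row, and -0.039 after scaling (95% interval -0.53 to 0.45, limma, adjusted p = 0.957). The scaled interval runs from 1.44-fold lower to 1.37-fold higher in SKO, and the deposited one from 1.77-fold lower to 2.12-fold higher.

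Ift20 encodes a small IFT-B subunit that also works at the Golgi apparatus, from which it carries membrane proteins. Ift20 (identifier 55978, chromosome 11, 78536361 to 78541732) had 19.6, 13.1 and 27.6 FPKM in wild type and 17.9, 43.6 and 28.4 FPKM in SKO. The groups overlapped, with SKO replicate 1 inside the wild-type range. The log2 fold change was 0.52 (95% interval -0.49 to 1.53, limma, adjusted p = 0.705), and 0.36 after scaling.

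Ift88 encodes a core subunit of the same complex and is needed for cilia, sperm tails and normal head shape. Ift88 (identifier 21821, chromosome 14, 57424064 to 57517936) had 19.7, 31.8 and 35.5 FPKM in wild type and 19.6, 28.2 and 14.4 FPKM in SKO. The groups overlapped as deposited, and after scaling they stood just apart, with 24.2, 34.3 and 31.9 for the wild-type libraries against 23.2, 21.5 and 13.3 in SKO. The log2 fold change was -0.47 (SE 0.41, limma, adjusted p = 0.708), and -0.64 after scaling (95% interval -1.27 to -0.0018, limma, adjusted p = 0.318). Scaled groups apart with SKO lower occurred in 9.85% of all tested rows.

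Cep131 and Spem1 were the sparsest of the 8 per length, with means of 5.41 and 1.06 FPKM over the 6 libraries. CEP131 is a protein of centriolar satellites and of the manchette, needed for sperm tails in mice. Cep131 (identifier 12009, chromosome 11, 120064429 to 120086865) had 3.40, 4.59 and 2.22 FPKM in wild type and 5.11, 5.09 and 12.0 FPKM in SKO. It was the only one of the 8 genes whose deposited values did not overlap between genotypes, beside 15.7% of all tested rows, and SKO replicate 3 stood well above the other SKO libraries. Its means were 3.40 ± 1.18 and 7.41 ± 4.00 FPKM (SD, n = 3), and the log2 fold change was 0.87 (95% interval -0.064 to 1.81, limma, adjusted p = 0.484). After scaling the groups overlapped, with SKO replicate 2 at 3.89 below 2 wild-type libraries. Without SKO replicate 3 the log2 fold change was 0.51. The summed level of 6 Leydig cell markers was also highest in SKO replicate 3, though Hsd3b1 was highest in SKO replicate 2 and Star in SKO replicate 1, and their part in the Cep131 values was not tested.

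Spem1 encodes a protein of elongating spermatids that is needed to strip cytoplasm from the head and neck, and without it the head is bent back over the tail. Spem1 (identifier 74288, chromosome 11, 69820871 to 69822165) had 1.37, 0.567 and 1.37 FPKM in wild type and 1.08, 1.71 and 0.279 FPKM in SKO. Multiplied by the relative depth of the libraries, these 6 values were whole multiples of a common unit within 0.005 of a read. The smallest whole numbers that fit were 5, 2 and 4 reads in wild type and 5, 4 and 1 reads in SKO. The 11 reads of wild type and 10 reads of SKO gave a ratio per depth of 0.871 (SKO over wild type, exact 95% interval 0.332 to 2.26), an interval that covers counting error only. A change within these bounds was not detectable at this depth. Its log2 fold change in the fit was -0.095 (limma, adjusted p = 0.965). Spem1 ends 94547 bases before the start of Eif5a on the same chromosome. The 22 tested protein-coding neighbours that start within 250 kb of Eif5a, Spem1 among them, had a median log2 fold change of -0.088. Of these, 0 passed (limma) and 2 had an unadjusted p under 0.05, beside 11% of all rows.

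Ratios between partner genes within a library do not depend on the scaling of that library, and 10 pairs with a member of the 8 were compared. Pairs and ratios were chosen after the levels were known, and with 3 libraries against 3 the smallest two-sided exact permutation p is 0.1. How often groups stand apart over gene pairs in general was not computed, so a count of pairs apart has no background here. The ratio of Meig1 to Spag16, a protein of the sperm tail's central apparatus that MEIG1 binds, was 14.7, 12.9 and 19.0 in the wild-type libraries against 29.6, 32.6 and 35.8 in SKO. This ratio was higher in all 3 SKO libraries than in any wild-type library, by 2.13-fold (geometric means; exact permutation p = 0.1, adjusted p = 0.333 over 10 pairs). Spag16 itself had 60.6 ± 15.0 and 54.6 ± 21.2 FPKM (wild type and SKO, SD, n = 3; limma, adjusted p = 0.919).

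Of the kinesin-2 subunits, Kif3a exceeded Kif3b, the second motor subunit, by 8.73, 9.05 and 8.84 times in wild type and by 7.04, 8.75 and 9.56 times in SKO (exact permutation p = 0.8). The wild-type ratios of this pair lay within a narrow range, and the SKO ratios spread on both sides of it. The ratio of Kif3a to Kifap3, the cargo-binding subunit, was 1.90 ± 0.203 in wild type and 1.57 ± 0.138 in SKO, with the groups apart (SD, n = 3; exact permutation p = 0.1, adjusted p = 0.333).

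Among IFT pairs, Ift88 stood at 1.00, 2.42 and 1.29 times Ift20 in wild type and at 1.10, 0.647 and 0.506 times in SKO. These groups overlapped through wild-type replicate 1 (exact permutation p = 0.2). Ift88 to Ift81, another IFT-B subunit, stood at 0.258 ± 0.0628 against 0.239 ± 0.0137 (wild type against SKO, SD, n = 3; exact permutation p = 0.7). The widest separation was between Ift20 and Spef2, whose protein binds IFT20 in the manchette and is needed for tails. That ratio was 0.812, 0.474 and 0.597 in the wild-type libraries against 1.62, 2.48 and 2.37 in SKO, 3.46-fold higher (exact permutation p = 0.1, adjusted p = 0.333). Spef2 was added as a partner after its values were seen, and its own deposited groups stood apart with SKO lower. The ratio therefore carries the Spef2 values and is no separate result. Groups overlapped for the ratio of Ift88 to Ift52, 2.32 ± 1.53 in wild type and 1.31 ± 0.219 in SKO (SD, n = 3; exact permutation p = 0.2). They overlapped too for Spem1 to Ubqln1 and to Ranbp17, which rest on the few Spem1 reads (exact permutation p = 0.8 and 0.5).

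**Figure D3:**
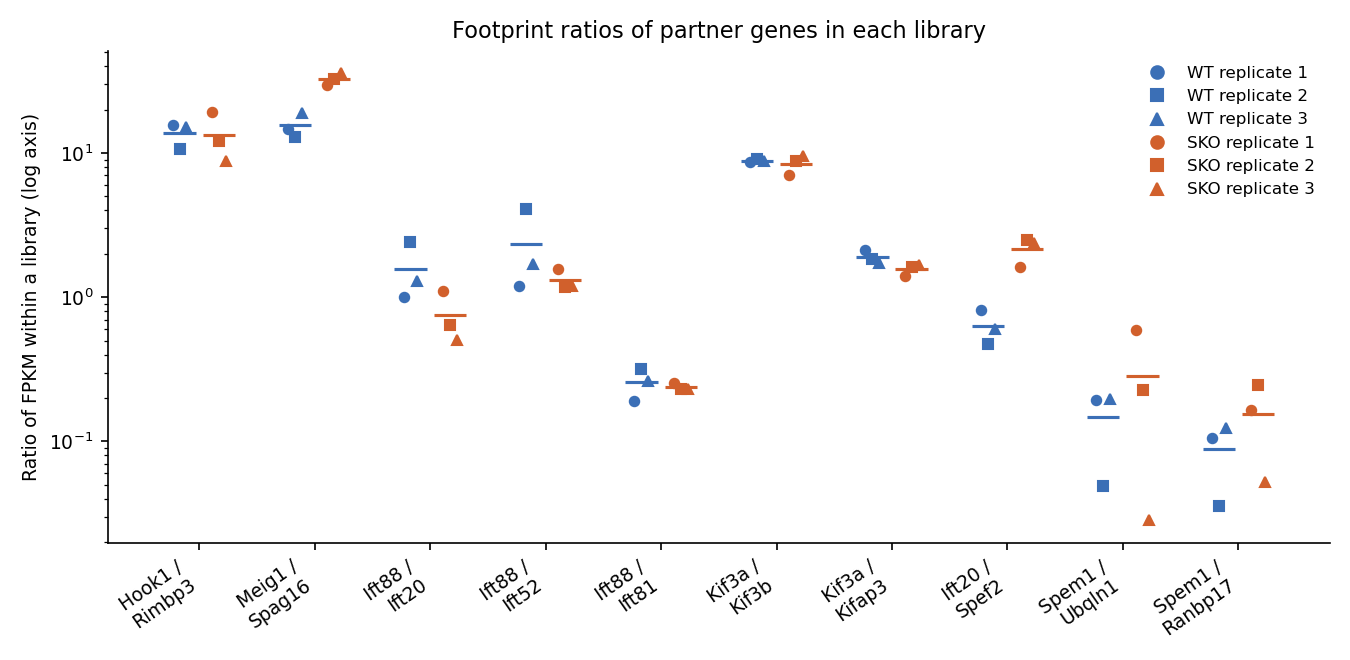
Ratio of the FPKM of 2 partner genes within each library, on a log axis; symbols mark the replicate, bars the group means, blue wild type and orange SKO. Meig1 to Spag16 and Ift20 to Spef2 lie higher in all SKO libraries and Kif3a to Kifap3 lower, while the other 7 pairs overlap. Pairs were chosen after the levels were known, and no background share for gene pairs was computed.

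Other genes of the same pathway were read from 5 lists of 57 genes, of which 54 were tested. As deposited 0 of the 54 passed (limma, adjusted p under 0.05). After scaling 1 fell and 0 rose, beside 0.257% of all rows that fell. At an unadjusted p under 0.05 (limma) the count was 3 as deposited, beside 11% of all rows. After scaling it was 14, with 12 lower and 2 higher in SKO, beside 15.6% of all rows. The gene that passed after scaling was Spef2 (identifier 320277, chromosome 15, 9578193 to 9748868). It had 24.1, 27.7 and 46.2 FPKM in wild type and 11.0, 17.6 and 12.0 FPKM in SKO, with all SKO libraries below all wild-type libraries. The means were 32.7 ± 11.9 and 13.5 ± 3.56 FPKM (SD, n = 3). The log2 fold change was -1.19 as deposited (SE 0.40, limma, adjusted p = 0.320) and -1.35 after scaling (SE 0.22, limma, adjusted p = 0.0468). With any 1 of the 6 libraries left out the scaled call was lost (limma, adjusted p from 0.0928 to 0.172), at a log2 fold change from -1.43 to -1.22.

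The 54 genes had a scaled median log2 fold change of -0.16, against 0.0028 for all rows, and 35 of them lay below the median of all rows. Scaled groups stood apart with SKO lower in 14 of the 54 (25.9%) and with SKO higher in 2 (3.70%), beside 9.85% and 11.6% of all rows. With the deposited values 5 were lower and 2 higher, together 13.0% of the 54 beside 15.7% of all rows in either direction. Shares of all rows by direction are not given here for deposited values, so these counts have no background by direction. For the 8 genes themselves the scaled counts were 1 and 1. All 6 IFT-A subunits, which serve transport back towards the cell body, lay below the median of all rows, with a scaled list median of -0.26. Ift43 and Wdr35, the densest of them, had 204 ± 81.4 and 74.2 ± 27.1 FPKM in wild type and 204 ± 87.3 and 70.5 ± 19.1 FPKM in SKO (SD over 3 libraries; limma, adjusted p of 0.994 and 0.988). The 16 further IFT-B subunits had a scaled median of -0.073, with Ift81 at 112 ± 19.1 and 86.9 ± 30.9 FPKM and Ift172 at 86.7 ± 28.2 and 89.3 ± 33.4 FPKM (SD, n = 3).

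The 7 tested transport motors had a scaled median of 0.036. Kifap3 had 28.1 ± 9.21 and 36.9 ± 11.0 FPKM, and the dynein-2 subunit gene Dync2li1 23.6 ± 6.56 and 21.9 ± 9.10 FPKM (wild type and SKO, SD, n = 3). The 6 tested partners and relatives of the 8 genes had the lowest list median, -0.53 after scaling. Among them Ranbp17, whose protein binds SPEM1, had 13.0, 15.9 and 11.0 FPKM in wild type and 6.48, 6.96 and 5.30 FPKM in SKO, a gene named after its values were seen. Its groups did not overlap, and it did not pass the test (log2 fold change -0.97, SE 0.34, limma, adjusted p = 0.330). The 19 manchette microtubule and head-shaping genes, Spef2 among them, had a scaled median of -0.17. Ttc30a1, Ttc30a2 and Ttc30b among the IFT-B genes are near-identical copies that can share reads.

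**Figure D4:**
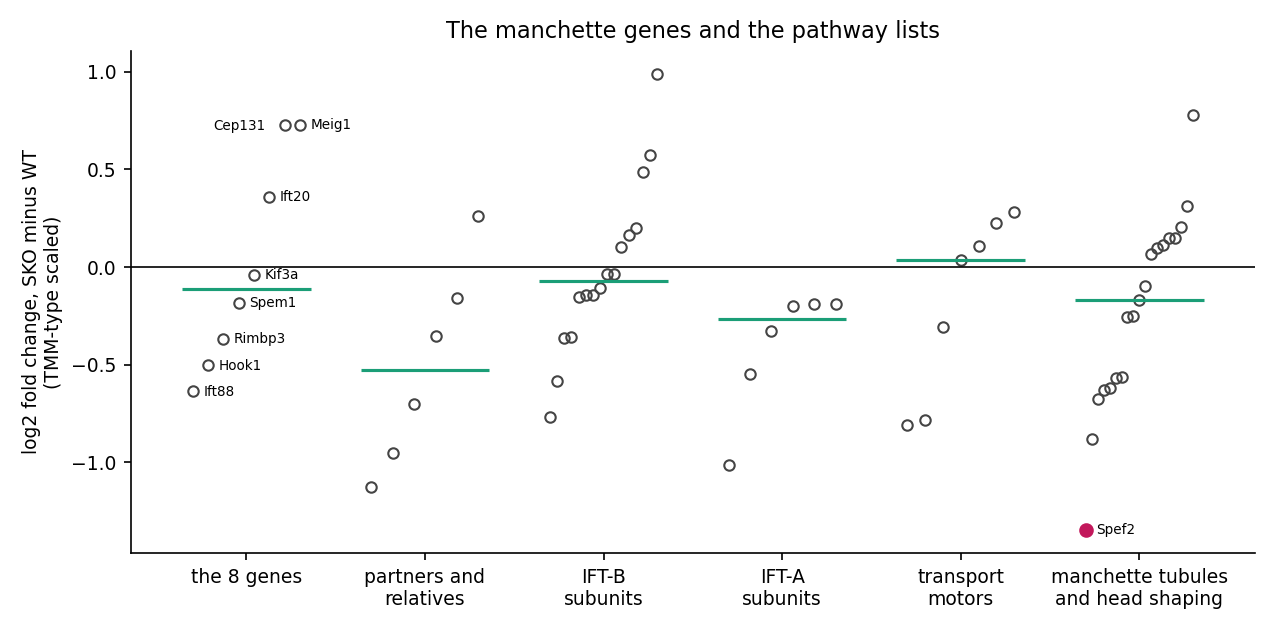
Scaled log2 fold change (SKO minus wild type) of the 8 genes and of each tested gene in the 5 pathway lists; open circles did not pass the test, the filled circle did, green bars are list medians and the black line is the median of all tested rows. The 8 genes run from -0.64 to 0.73, and Spef2 at -1.35 is the only filled point.

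Of the 8 genes, 7 are here set beside the gene whose pattern over the 6 libraries was most like its own. Likeness was the root mean square difference of log2(FPKM + 1) centred on each gene's mean. Candidates were the 4689 protein-coding rows whose mean reached 5 FPKM, without genes of Gm, LOC or Rik names. The closest pair was Kif3a and Nop9 (0.042 log2 units), followed by Rimbp3 and Itfg1 (0.060) and Meig1 and Hsbp1 (0.062). Hsbp1 had 192, 300.1 and 433 FPKM in wild type and 363, 841 and 616 FPKM in SKO, so the rise and fall over libraries seen for Meig1 recurred at a lower level. Ift20 lay nearest Bri3 (0.066), Hook1 nearest Rrm1 (0.077), Spem1 nearest Vps36 (0.11) and Cep131 nearest Txnip (0.16). These libraries share depth and scaling across all genes, and with 6 of them and this many candidates close matches are easily found, so the likeness is a description only.

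The markers of the labelled cell type were dense in part. Acrv1, a gene of the acrosome, had 403 ± 128 and 628 ± 236 FPKM and Crem, an activator of spermatid genes, 226 ± 83.9 and 221 ± 88.5 FPKM (wild type and SKO, SD, n = 3), while Tssk1 and Spata18 had means of 2.46 and 4.34 FPKM over the 6 libraries. The 6 elongating spermatid markers, of the stage at which the manchette stands, had a median log2 fold change of -0.093 as deposited and -0.22 after scaling. Of them 0 passed the test (limma). At an unadjusted p under 0.05 (limma) the count was 0 as deposited, beside 11% of all rows. After scaling it was 1, for Tnp1 (lower in SKO), beside 15.6% of all rows. The summed level of the 6 markers ran from 181 to 285 FPKM in wild type and from 209.9 to 362 FPKM in SKO, led by Odf2. Odf2 had 131 ± 33.8 and 205 ± 64.4 FPKM and Tnp1 44.0 ± 11.8 and 31.7 ± 7.05 FPKM (wild type and SKO, SD, n = 3). After scaling the groups of Odf2 stood apart with SKO higher, and those of Tnp1 and Prm2 with SKO lower. Those of Prm1, Tnp2 and Akap4 overlapped. Among all tested rows, scaled groups stood apart with SKO higher in 11.6% and with SKO lower in 9.85%.

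The summed levels of somatic testis cell markers did not overlap between the genotypes. The sum of 6 Leydig cell markers ran from 11.8 to 18.2 FPKM in wild type and from 60.6 to 116 FPKM in SKO, led by Insl3 and Cyp17a1. The sum of the 5 Sertoli cell markers in the table, of 11 listed, ran from 10.3 to 22.8 FPKM and from 53.1 to 78.0 FPKM, led by Clu and Ctsl. These markers differed, with deposited log2 fold changes of 2.18 for Clu, 1.81 for Ctsl, 1.26 for Cst12, 0.30 for Inha and 0.014 for Dhh. Inha and Dhh were sparse, with means of 1.09 and 1.06 FPKM over the 6 libraries. As deposited 0 of these rows passed the test, and Clu alone passed after scaling (limma, adjusted p = 0.041), beside 0.128% and 1.02% of all rows. At an unadjusted p under 0.05 (limma) there were 5 Leydig and 3 Sertoli rows as deposited, beside 11% of all rows. Single rows had deposited groups apart with SKO higher in 5 of the 6 Leydig and 2 of the 5 Sertoli markers, beside 15.7% of all rows in either direction, while Star, Dhh, Inha and Cst12 overlapped. None of these markers was listed at 0 in all libraries. Cep131, Ift20, Ift88, Kif3a and their relatives are also used by somatic cells, and the part of such cells in their values was not tested.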

How the data were processed

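Ribosome footprints of mouse round spermatids, 3 wild-type and 3 Eif5a SKO samples, were analysed from 1 table of FPKM values that the authors deposited, with no counts. The table's columns name the genotype cKO, and its replicates were matched to the SKO samples by number. Per the submitters' processing notes the tools were STAR, Bowtie2, Cufflinks and cutadapt, without their roles, and mm10 was the build. Which annotation was used, and how ribosomal RNA and reads with several matches were treated, is not given in the sources used here. The unit is relative, so very dense rows move all others of a library.

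Symbols were matched to a RefSeq table of GRCm38 (19305 rows by symbol, 81 by synonym, 3384 unmatched), which gave coordinates. Rows whose mean reached 1 FPKM were tested with limma 3.58.1 in R 4.3.3 (eBayes with a trend) on log2(FPKM + 1), which understates changes of low genes. Of the fits, only the main one was also run on simulated data with known changes. TMM-type factors left out 0.3 of the log ratios and 0.05 of the mean levels from each end.

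Absolute depth is unknown. Relative depth came from the most frequent ratio of low rows between each library and SKO replicate 1 (0.787, 0.761 and 0.631 for the wild-type libraries, 1, 0.503 and 0.771 for SKO). Of 3042 low rows, 2293 to 2578 were above 0 in both libraries, and 122 to 172 lay at the most frequent ratio. Whole reads within 0.005 were found for 9.69% of tested rows, Spem1 alone among the 8 genes, too few for a count model.

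The 8 genes and all lists were chosen with earlier results of these data known. Named genes are the 8, Eif5a, the pathway genes past the test or else the 2 densest of each list, the 2 densest of each marker list and the nearest patterns. Beside the 10 partner ratios given, 1 more and the nearest pattern of Ift88 are not reported here. Partner genes in ratios and Ranbp17 were added after values were seen. Protein sequences were not analysed here, so a planned description of proline runs was not made. Alternatives were other pseudocounts, filters, scalings and variance models, a block for the replicate number, and dropping each library in turn.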

Additional observations from a re-analysis of the deposited data

How the results depend on the processing

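In each of 24 alternative settings 0 of the 8 genes passed the test (20 rows passed over the whole table with the deposited values, 17 higher and 3 lower), and the median of the 8 genes minus that of all rows, -0.11 with the deposited values, ran from -0.23 to 0.0042. Eif5a passed in all 24. Hook1, Ift88, Cep131, Ift20 and Meig1 kept their direction in all 24, though single libraries moved their log2 fold changes: with 1 left out, Hook1 ran from -0.50 to -0.063 (the latter without WT replicate 3), Ift88 from -0.72 to -0.25 (without SKO replicate 3), Ift20 from 0.22 (without SKO replicate 2) to 0.84, Cep131 from 0.51 (without SKO replicate 3) to 1.06 and Meig1 from 0.61 (without SKO replicate 2) to 1.23. Kif3a turned to -0.039 with TMM-type scaling, -0.14 with quantile normalization, -0.065 with equal sums, -0.10 with equal protein-coding sums and -0.039 with the replicate block and TMM-type scaling. With 1 library left out, Kif3a ran from -0.10 to 0.43 (-0.15 to 0.11 scaled), Rimbp3 from -0.45 to 0.020 (-0.51 to -0.27 scaled) and Spem1 from -0.29 to 0.20 (-0.39 to 0.098 scaled). Spem1 lay under the filter with a mean of at least 5 FPKM and without SKO replicate 2, which gave no value. Over all rows, 4 passed with a pseudocount of 5, 5 with no filter, 86 with a mean of at least 5 FPKM, 159 with TMM-type scaling (119 higher, 40 lower), 446 with quantile normalization (248 and 198), 517 with equal protein-coding sums (315 and 202) and 63 with robust eBayes. Leaving out 1 library gave 4 to 31, or 4 to 28 scaled. Pathway genes past the test numbered 0 with the deposited values, 1 with TMM-type scaling (Spef2) and 4 with quantile normalization or with equal protein-coding sums (Spef2, Ift140, Ift74 and Ccdc38, all lower). The cause of these shifts in counts was not tested. Same-numbered libraries did not deviate together (correlations 0.093, 0.00016 and 0.024), so the numbers were not taken as pairs; the replicate block gave 5 rows over the whole table, 4 with TMM-type scaling, and 0 of the 8 genes.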
